A study of Mus musculus with 8 samples.

Results

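The genes described here encode G-protein coupled receptors, the subunits of heterotrimeric G proteins and the Rgs proteins that switch these G proteins off. They were chosen by symbol from the authors' comparison of 2 cell fractions: all symbols that start with Gpr, P2ry, Ptger, S1pr, Lpar, Rgs, Gnb or Gng and a digit, with Adora, or with Gna and the letter or digit of an alpha subunit, leaving out S1pr1. This gave 99 of the 14033 symbols in the comparison, of which 52 are receptors, 23 are G protein subunits and 11 are Rgs proteins. The other 13 carry such a symbol but are known as other kinds of protein or, in the case of Gpr137b-ps, as a pseudogene. Symbols are given as the authors' table has them, in the spelling of an older mouse annotation, and all 99 matched a gene of the RefSeq table, 14 of them through an older symbol.

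The cells came from mouse fetal liver at E14.5, in mid-gestation, from Flt3-Cre mice crossed to mTmG reporter mice, and all 8 libraries share these alleles. The mTmG reporter makes the red protein Tomato in every cell until Cre removes it and starts the green protein GFP, so that GFP+ cells, or their ancestors, have had Flt3-Cre activity and Tomato+ cells have not recombined. Cells without lineage markers and with Kit, Sca1 and CD150, the surface profile of hematopoietic stem cells, were sorted into a Tomato+ fraction of 4 libraries and a GFP+ fraction of 4 libraries. The labels do not say whether the libraries of a fraction came from separate embryos or litters, so the authors' p-values may reflect technical spread only. The comparison asks how both fractions differ in a study of a transient stem cell of development.

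G-protein coupled receptors span the membrane and, when they bind a ligand outside the cell, load GTP onto the alpha subunit of a G protein inside it, which then parts from its beta and gamma subunits. Alpha subunits of the Gs family raise cyclic AMP, those of the Gi/o family lower it, and those of the Gq family act through phospholipase C beta, while those of the G12/13 family act on the cytoskeleton. Rgs proteins speed up GTP hydrolysis by alpha subunits and so end the signal. In blood-forming cells such receptors sense chemokines, lipids, nucleotides and acid, and take part in homing, retention and mobilization.

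Expression is given as the authors' mean normalized count of a fraction, which is comparable between fractions for 1 gene but not between genes, since it is not per length. A log2 value is that of the GFP+ mean over the Tomato+ mean, positive where GFP+ is higher. "Rose" and "fell" mean that the authors' adjusted p was under 0.05 for GFP+ against Tomato+. The table used here gives no value per library, so no SD can be given and overlap between the libraries of both fractions could not be examined. The depth per library is unknown. The means of each fraction summed to 7926897 in GFP+ and 7111170 in Tomato+ over 14268 rows going by the authors' deposited table. Flt3, whose regulatory elements drive the Cre, averaged 3753 in GFP+ against 1617 in Tomato+ as read from the authors' deposited table. Of the genes of the sort, Kit had 4087 and 4950 and Ly6a (Sca1) 59.5 and 70.1, as the authors' deposited table has it. Slamf1, which encodes the CD150 that both fractions were sorted for, had 27.9 and 119 and fell 4.24-fold in GFP+ (the authors' adjusted p = 4.95e-08), by the authors' deposited table.

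Receptors made up 52 of the 99 members and most of those that differed. Of the 99 members, 6 rose and 5 fell, and 9 of these 11 were receptors. The rises were Gpr174, Ptger2, Gpr171, Gpr97, P2ry12 and Gpr65, which are known from lymphoid cells, myeloid cells or platelets among others. The falls were the receptors Gpr124, Gpr116 and Gpr182, known from endothelium among others, and the G protein subunits Gng11 and Gnaz, which are abundant in platelets. The members past the threshold made up 11.1% of all members, against 7.49% of all rows by the authors' deposited table. By kind, 17.3% of the 52 receptors, 8.70% of the 23 G protein subunits and none of the 11 Rgs genes passed. Rises alone made up 4.86% and falls alone 2.64% of all rows going by the authors' deposited table. At other rules, 16 members passed an adjusted p of 0.1 (against 9.63% of all rows), 9 passed 0.01 (against 4.9% of all rows), and 8 passed 0.05 with a log2 change of at least 1 (against 3.45% of all rows), as read from the authors' deposited table. A Bonferroni adjustment left 2, Gpr174 and Gpr124 (against 2.16% of all rows), as the authors' deposited table has it. With p-values adjusted over the rows whose mean was at least 50, 9 of the 56 such members passed (against 9.05% of those rows). Of these 9, 5 were higher and 4 lower in GFP+. They include Adora2a, which is not among the 11. P2ry12, Gpr116 and Gpr182 have means below 50 and so were left out. An unadjusted p under 0.05 was reached by 21 members and by 16.2% of all rows by the authors' deposited table. The median log2 was -0.05 over the members and 0.01 over all rows going by the authors' deposited table.

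**Figure D1:**
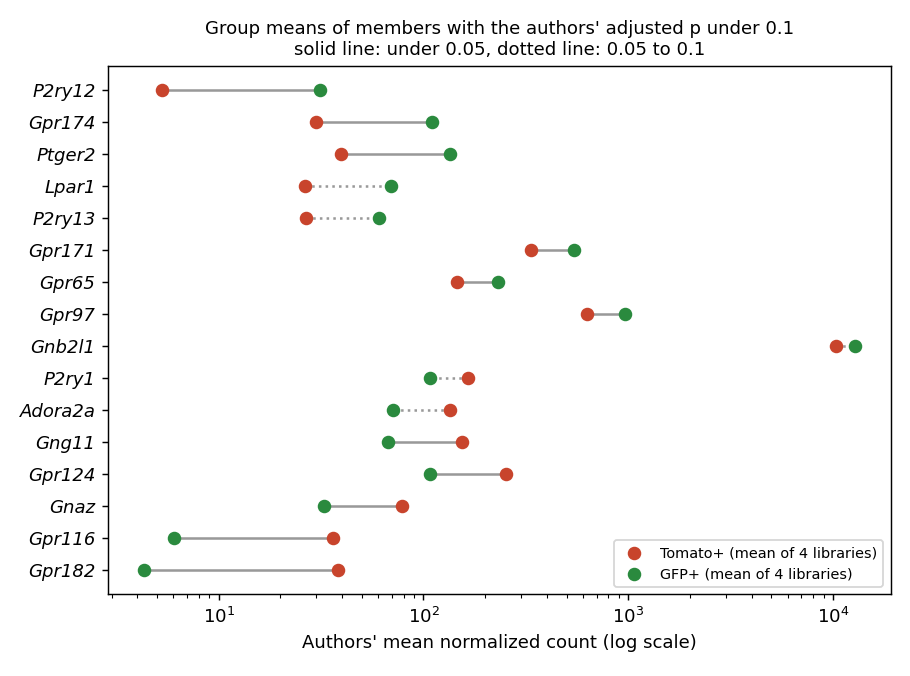
Mean normalized counts of the 16 members with the authors' adjusted p under 0.1, in Tomato+ (red) and GFP+ (green), on a log axis; solid lines join means of members past 0.05 and dotted lines those between 0.05 and 0.1. Gpr182 and Gpr116 had the widest gaps towards Tomato+ (38.1 against 4.31 and 35.96 against 6.06) and P2ry12 the widest towards GFP+ (31.4 against 5.31).

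The members had a median overall mean of 86.8 against 214 over all rows as read from the authors' deposited table. Their overall means ran from 4.32 to 11576, and these means are not per length. Of the 56 members with an overall mean of at least 50, 8 passed (against 8.61% of all rows with such a mean), and of the 43 below that mean, 3 passed (against 4.19% of such rows), as the authors' deposited table has it. Those 3, P2ry12, Gpr116 and Gpr182, had a mean under 10 in the fraction where they were lower. Scaling both fractions to the same sum lowers every log2 value by 0.16, which is less than the smallest change among the 11 members (0.62 for Gpr97) and so cannot turn a direction.

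**Figure D2:**
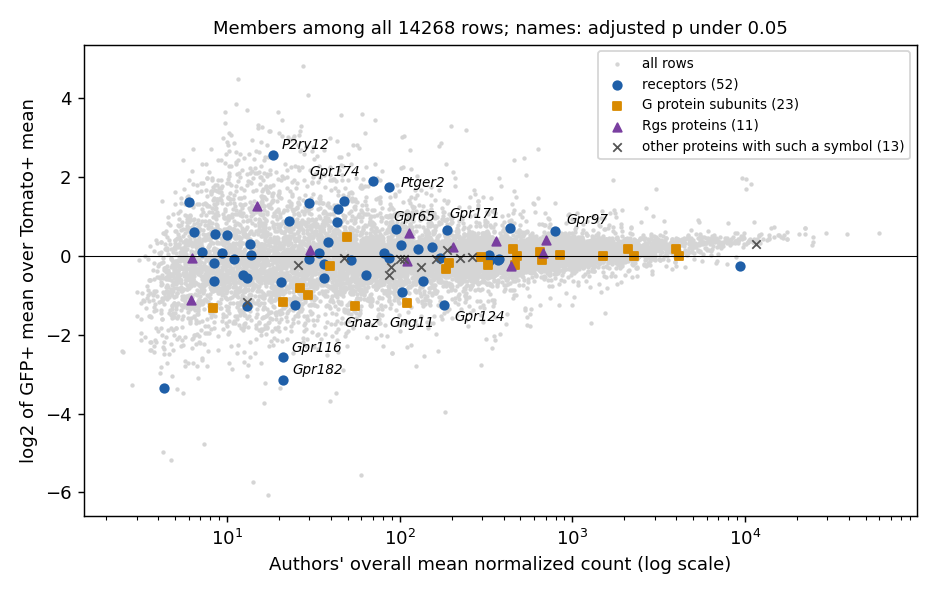
Log2 of the GFP+ mean over the Tomato+ mean against the overall mean normalized count (log axis) for all 14268 rows (grey) and the members, by kind; members past the authors' adjusted p of 0.05 are named. The G protein subunits with the highest means lie close to 0, and the named receptors lie on both sides.

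The RefSeq promoter table (build GRCm38.p6), which is of another build than the mm9 of the authors' processing, held an entry for 6 of the 11 changed members. Sequences from 250 bases before to 50 bases after the start are printed for the 4 of these 6 with the smallest p-values. The receptors Gpr124, Gpr171 and Gpr182 had smaller p-values than Gpr116 but no entry. Capitals mark a match, on either strand, to 1 of 3 motifs of blood and endothelial transcription factors. The letters searched were AGATAA for GATA factors. For Ets factors they were GAGGAA, and for Runx factors TGTGGT. Gpr116 has a further entry for another start, which is not printed and holds none of the 3 motifs.

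Gpr174 promoter, chrX:107284096-107284395, plus strand: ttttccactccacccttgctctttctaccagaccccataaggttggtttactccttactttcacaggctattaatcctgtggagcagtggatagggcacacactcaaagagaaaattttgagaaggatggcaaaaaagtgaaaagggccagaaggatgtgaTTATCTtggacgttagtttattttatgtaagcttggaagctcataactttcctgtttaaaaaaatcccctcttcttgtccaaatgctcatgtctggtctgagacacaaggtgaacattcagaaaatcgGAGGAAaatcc

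Ptger2 promoter, chr14:44987861-44988160, plus strand: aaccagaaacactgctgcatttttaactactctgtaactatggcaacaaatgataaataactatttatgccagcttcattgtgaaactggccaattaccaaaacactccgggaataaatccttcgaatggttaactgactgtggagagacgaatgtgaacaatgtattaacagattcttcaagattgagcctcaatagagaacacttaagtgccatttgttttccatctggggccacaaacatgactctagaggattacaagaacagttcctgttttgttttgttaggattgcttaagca

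Gpr97 promoter, chr8:95017442-95017741, plus strand: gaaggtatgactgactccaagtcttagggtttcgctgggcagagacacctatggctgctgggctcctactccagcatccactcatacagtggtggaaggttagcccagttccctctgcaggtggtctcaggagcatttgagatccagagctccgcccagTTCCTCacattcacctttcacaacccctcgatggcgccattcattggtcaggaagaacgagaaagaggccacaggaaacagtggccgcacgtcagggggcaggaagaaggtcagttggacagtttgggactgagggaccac

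Gpr116 promoter, chr17:43360181-43360480, plus strand: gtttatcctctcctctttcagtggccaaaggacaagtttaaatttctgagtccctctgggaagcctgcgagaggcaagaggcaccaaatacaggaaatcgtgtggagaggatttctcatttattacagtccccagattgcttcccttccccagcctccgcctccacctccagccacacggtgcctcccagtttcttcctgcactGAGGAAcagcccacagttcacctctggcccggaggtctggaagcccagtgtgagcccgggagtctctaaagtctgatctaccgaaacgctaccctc

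The Gpr174 promoter holds a GATA match that begins 89 bases before the start and an Ets match 39 bases after it. The Gpr97 promoter and the printed Gpr116 promoter hold 1 Ets match each, 91 and 46 bases before the start, and the Ptger2 promoter holds none of the 3 motifs. Over all 32851 promoter entries, 11.2% hold the GATA letters, 28.3% the Ets letters and 16.8% the Runx letters on either strand. These are matches of letters only.

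Adhesion receptors, which carry long extracellular parts that bind matrix or neighbouring cells, moved in both directions. Of 10 members, Gpr97 rose and Gpr124 and Gpr116 fell. Over all rows, 4.86% rose and 2.64% fell. Gpr124, now named Adgra2 and known as a co-receptor for Wnt7 ligands in brain endothelium, averaged 107 in GFP+ against 254 in Tomato+ by the authors' deposited table. It was 2.37-fold lower in GFP+ (the authors' adjusted p = 2.41e-05), the smallest p-value of any member going by the authors' deposited table. Gpr116 (Adgrf5), known from lung epithelium and endothelium, had means of 6.06 and 35.96 and was 5.94-fold lower in GFP+ (the authors' adjusted p = 0.0033), as read from the authors' deposited table. Gpr97 (Adgrg3), an adhesion receptor of granulocytes, averaged 964 in GFP+ against 627 in Tomato+, 1.54-fold higher in GFP+ (the authors' adjusted p = 0.0022), as the authors' deposited table has it.

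Gpr56 (Adgrg1), an adhesion receptor known from stem cells and cytotoxic lymphocytes, averaged 8598 in GFP+ against 10186 in Tomato+, with a log2 of -0.24 and an adjusted p of 0.165, by the authors' deposited table. It is the receptor measured with the most counts, and it did not pass. The adhesion receptors Gpr64, Gpr125, Gpr126, Gpr128 and Gpr133 did not pass either, with log2 values from -3.34 for Gpr64 to 0.11 for Gpr126 going by the authors' deposited table. Gpr64 had means of only 0.776 and 7.85 as read from the authors' deposited table. The median log2 of the 10 was -0.40.

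The P2Y and adenosine receptors, which apart from P2ry10 respond to ATP, ADP, UTP, UDP, UDP-sugars or adenosine released by cells, had higher means in GFP+ for 7 of 9 members with P2ry10 counted, but only P2ry12 rose and none fell. Of all 14268 rows, 7311 had a higher mean in GFP+, while 4.86% rose and 2.64% fell. P2ry12, P2ry13 and P2ry14 are among the neighbouring genes described below. P2ry12, the ADP receptor of platelets and microglia, averaged 31.4 in GFP+ against 5.31 in Tomato+, 5.91-fold higher (the authors' adjusted p = 0.0198), as the authors' deposited table has it. P2ry13, another ADP receptor, had means of 60.9 and 26.6 (adjusted p = 0.0717), and P2ry14, a receptor for UDP-glucose, 56.0 and 30.8 (adjusted p = 0.229), by the authors' deposited table. P2ry10, a lysophospholipid receptor of lymphocytes, had means of 42.7 and 16.9 with an adjusted p of 0.321 going by the authors' deposited table. P2ry2, which binds ATP and UTP, had 118 and 73.1 (adjusted p = 0.490), and P2ry6, which binds UDP, 14.0 and 13.7 (adjusted p = 0.905), as read from the authors' deposited table.

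P2ry1, the second ADP receptor of platelets, went the other way without passing, at 107 in GFP+ against 166 in Tomato+ (adjusted p = 0.0897), as the authors' deposited table has it. So did the Gs-coupled adenosine receptor Adora2a, with 70.7 and 134 (adjusted p = 0.0542), by the authors' deposited table. Adora2b, the low-affinity adenosine receptor, had means of 8.62 and 3.35 (adjusted p = 0.785), going by the authors' deposited table. The median log2 of the 9 was 0.86, but it was -0.63 over the 3 members with an overall mean of at least 50, which are P2ry1, P2ry2 and Adora2a, as read from the authors' deposited table. Of those 3, P2ry1 and Adora2a were below 0 and P2ry2 was above it, and none passed the authors' adjusted p of 0.05 over all rows.

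Of the 4 prostaglandin E2 receptors, Ptger2 rose and the others did not pass. Over all rows, 7.49% passed and 4.86% rose. Ptger2, which couples to Gs, averaged 135 in GFP+ against 39.7 in Tomato+, 3.39-fold higher (the authors' adjusted p = 0.000228), as the authors' deposited table has it. Ptger4, the other Gs-coupled receptor of this ligand, had means of 49.96 and 53.9 (log2 -0.11), and Ptger3, which couples to Gi, 83.1 and 78.5 (log2 0.08), by the authors' deposited table. Ptger1, which acts through calcium, had 329 and 326 going by the authors' deposited table. Ptger1, Ptger3 and Ptger4 all had adjusted p-values above 0.9 as read from the authors' deposited table.

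Neither the sphingosine 1-phosphate receptors nor the lysophosphatidic acid receptors held a member that passed, in the authors' DESeq comparison. Of these 8 genes 1, Lpar1, had an unadjusted p under 0.05. Among all rows, 7.49% passed and 16.2% had such an unadjusted p. S1pr2, S1pr3 and S1pr4, which bind a lipid that guides cell exit into blood, had log2 values of -0.48, -0.08 and -0.11 as the authors' deposited table has it. S1pr4, the receptor of this group known from lymphocytes, averaged 357 in GFP+ against 385 in Tomato+ by the authors' deposited table. Lpar1 had means of 69.3 and 26.4, a log2 of 1.39 and an adjusted p of 0.0541, the value nearest above the threshold going by the authors' deposited table. Lpar2, Lpar5 and Lpar6 had log2 values of 0.22, 0.28 and -0.05, and Lpar4 one of -0.67 at means of 15.8 and 25.1, as read from the authors' deposited table.

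Among receptors that sense acid, Gpr65, which raises cyclic AMP in lymphoid and myeloid cells, averaged 231 in GFP+ against 146 in Tomato+, 1.58-fold higher (the authors' adjusted p = 0.0344), as the authors' deposited table has it. It is the changed member nearest to the threshold. Gpr132 and Gpr4 of the same group had means of 314 and 342, and of 10.3 and 14.3, and did not pass by the authors' deposited table.

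Of the 18 other receptors with a Gpr symbol, Gpr174 and Gpr171 rose and Gpr182 fell. Over all rows, 4.86% rose and 2.64% fell. Gpr174, a receptor for lysophosphatidylserine in lymphocytes, averaged 110.3 in GFP+ against 29.8 in Tomato+, 3.70-fold higher (the authors' adjusted p = 0.000142), going by the authors' deposited table. Gpr171, related in sequence to the P2Y receptors, had means of 542 and 334, 1.62-fold higher (the authors' adjusted p = 0.000879), as read from the authors' deposited table. Gpr182, a scavenger of chemokines on sinusoidal and lymphatic endothelium, averaged 4.31 in GFP+ against 38.1 in Tomato+, 8.84-fold lower (the authors' adjusted p = 0.0029), as the authors' deposited table has it. Gpr157, with the second-highest mean of this group, had 136 and 120 and did not pass by the authors' deposited table. Among the 14 others, log2 values ran from -1.26 for Gpr162 to 0.89 for Gpr84 going by the authors' deposited table. Gpr183, an oxysterol receptor of lymphocytes, had means of only 7.77 and 5.13 as read from the authors' deposited table.

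**Figure D3:**
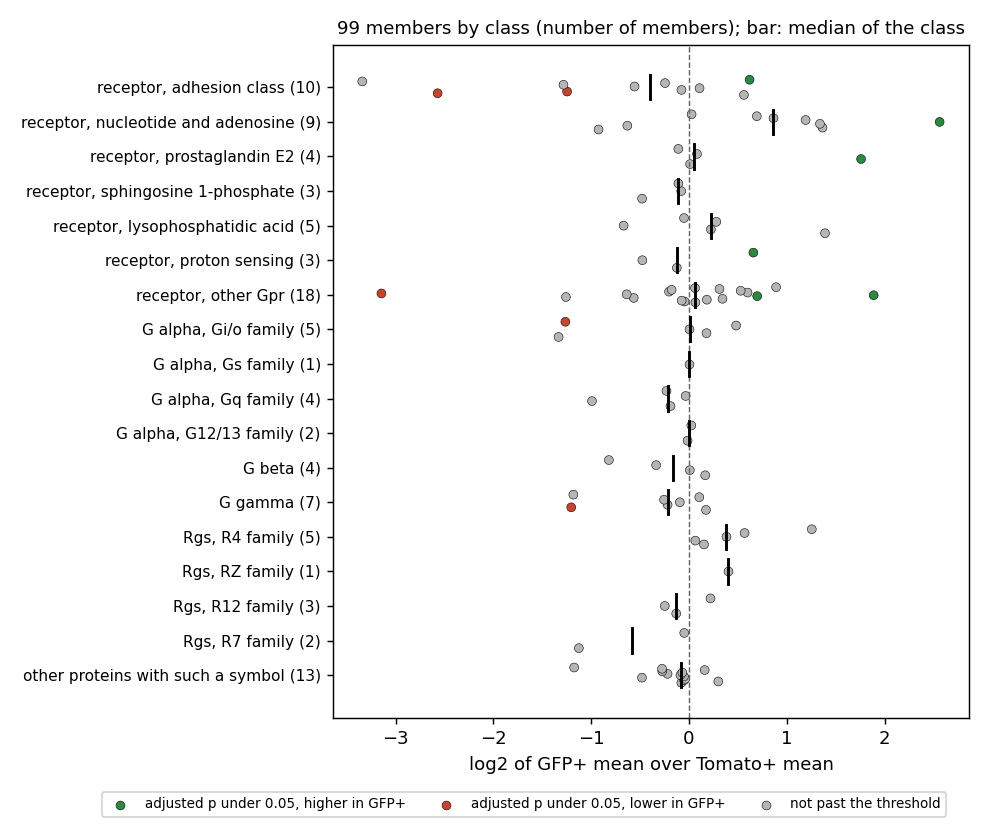
Log2 of the GFP+ mean over the Tomato+ mean for each of the 99 members by class, with the median of the class as a bar; green points rose and red points fell at the authors' adjusted p under 0.05, and grey points did not pass. Receptor classes spread widely, while most G alpha and G beta subunits lie near 0 and no Rgs member is coloured.

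Several of these receptor genes are neighbours. In the RefSeq annotation, 24 members stood in 9 runs with at most 2 other protein-coding genes between members. The run of 4 on chromosome 3, in the order Gpr171, P2ry14, P2ry13 and P2ry12, had log2 values of 0.70, 0.86, 1.19 and 2.56 as the authors' deposited table has it. All 4 were above 0, and the end members Gpr171 and P2ry12 passed. These 4 genes lie within the Mediator subunit gene Med12l in RefSeq, and Med12l itself fell 2.42-fold, at 147 in GFP+ against 356 in Tomato+ (the authors' adjusted p = 9.56e-08), by the authors' deposited table. Gpr171 and P2ry12 thus rose where the gene that contains them fell, while P2ry13 and P2ry14 did not pass. Whether the counting used strand was not given in the sources used here.

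A run of 3 on the X chromosome, Lpar4, P2ry10 and Gpr174, had log2 values of -0.67, 1.34 and 1.89 going by the authors' deposited table, of which Gpr174 alone passed. The adjacent adhesion receptor genes Gpr56 and Gpr97 on chromosome 8 had -0.24 and 0.62 as read from the authors' deposited table. Gpr97 rose there beside Gpr56, which had a lower mean in GFP+ and did not pass. The runs of Rgs2, Rgs1 and Rgs18 and of S1pr4, Gna15 and Gna11 held no member that passed.

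**Figure D4:**
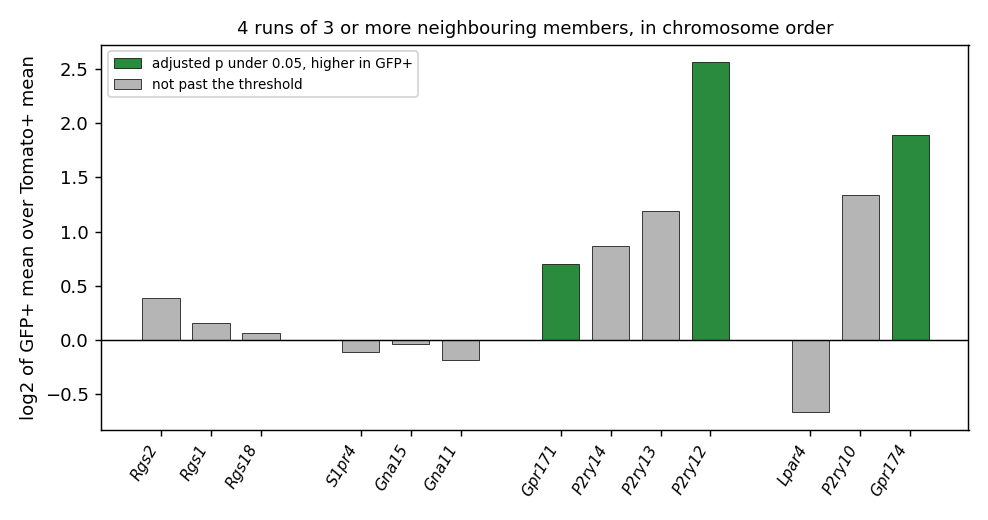
Log2 of the GFP+ mean over the Tomato+ mean (bars) for 4 runs of 3 or more neighbouring members, in chromosome order; green bars rose at the authors' adjusted p under 0.05. All 4 members of the run from Gpr171 to P2ry12 are above 0, while the run with Lpar4 holds members on both sides of 0.

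Of the 23 G protein subunits, 2 fell and none rose, and the median log2 was -0.09 as the authors' deposited table has it. The 2 are 8.70% of the subunits, while 7.49% of all rows passed and 2.64% of all rows fell. The summed means of the 23 were 19142 in GFP+ and 18681 in Tomato+, a ratio of 1.02, by the authors' deposited table. Over all rows the ratio of the sums was 1.11. With both fractions scaled to the same sum, the ratio of the 23 was 0.919. For the 52 receptors the sums were 13844 and 14842, of which Gpr56 made up the larger portion, and the ratio was 0.933 with Gpr56 and 1.13 without it, going by the authors' deposited table.

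Among the alpha subunits, Gnaz fell and the other 11 did not pass. Gnaz, a Gi/o family member of platelets and neurons, averaged 32.6 in GFP+ against 78.2 in Tomato+, 2.40-fold lower (the authors' adjusted p = 0.0017), as read from the authors' deposited table. The Gi proteins Gnai2 and Gnai3 had means of 4246 and 3749, and of 1511 and 1505, as the authors' deposited table has it. Gnas, the Gs alpha subunit, had 4137 and 4125 by the authors' deposited table. Its 3 rows had log2 values of 0.0039, 0.0024 and 0.035 going by the authors' deposited table. Of the G12/13 family, Gna12 had 477 and 482 and Gna13 854 and 839 as read from the authors' deposited table. The 4 Gq family genes all had log2 values below 0, from -0.03 for Gna15, the blood cell member of this family, to -0.99 for Gna14, and Gnaq had means of 431 and 505, as the authors' deposited table has it. Of all 14268 rows, 6957 were below 0.

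None of the beta subunits passed, and Gnb1, Gnb2, Gnb4 and Gnb5 held log2 values of 0.17, 0.01, -0.34 and -0.82 by the authors' deposited table. None of them had an unadjusted p under 0.05 in the authors' DESeq comparison. Among 7 gamma subunits Gng11, known from platelets and endothelium, fell 2.30-fold, at 66.7 in GFP+ against 154 in Tomato+ (the authors' adjusted p = 0.000784), going by the authors' deposited table. Gng2 and Gng5, the gamma subunits with the highest mean counts, had means of 641 and 684, and of 673 and 625, as read from the authors' deposited table. The others ran from a log2 of -1.18 for Gng7 to 0.17 for Gng10 as the authors' deposited table has it.

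None of 11 Rgs genes passed in the authors' DESeq comparison, and 2, Rgs2 and Rgs19, had an unadjusted p under 0.05. Over all rows, 7.49% passed and 16.2% had such an unadjusted p. Rgs2, which acts mainly on Gq, averaged 407 in GFP+ against 312 in Tomato+ (adjusted p = 0.110), by the authors' deposited table. Rgs19, which acts on Gi, had 797 and 604 (adjusted p = 0.148), going by the authors' deposited table. Rgs18, the family member best known from megakaryocytes and platelets, had 693 and 663, with a log2 of 0.07 that was -0.09 when both fractions were scaled to the same sum, as read from the authors' deposited table. Of the R12 family, Rgs12 had means of 403 and 478 and Rgs14 of 220 and 189 as the authors' deposited table has it. The R7 family genes Rgs9 and Rgs11 had means below 10 in both fractions. The median log2 of the 11 was 0.15, and -0.0026 with both fractions scaled to the same sum, by the authors' deposited table.

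The 13 members that carry such a symbol but are other proteins or, in 1 case, a pseudogene held none that passed, and 1 with an unadjusted p under 0.05, in the authors' DESeq comparison. That gene was Gnb2l1, now Rack1, a scaffold protein of the ribosome, at 12777 in GFP+ against 10376 in Tomato+ (adjusted p = 0.0619), going by the authors' deposited table. Among all rows, 7.49% passed and 16.2% had an unadjusted p under 0.05. Gpr108, a Golgi protein, had means of 260 and 267 as read from the authors' deposited table. Gpr137b and Gpr137b-ps, a gene and its pseudogene, had log2 values of -0.05 and -0.09 as the authors' deposited table has it, and how reads that fit both were counted was not given in the sources used here.

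Of the genes that act directly after receptors and G proteins, 43 of the 51 listed symbols had a row, and 4 fell while none rose. This is 9.30% of those measured. Of all rows, 7.49% passed in either direction and 2.64% fell, as given above. At an adjusted p under 0.1, 5 of these genes passed, 1 higher and 4 lower in GFP+, against 9.63% of all rows. Adcy6, an adenylyl cyclase that makes cyclic AMP, fell 2.10-fold, at 292 in GFP+ against 614 in Tomato+ (the authors' adjusted p = 1.18e-06), by the authors' deposited table. Plcb2, the phospholipase C beta of blood cells, fell 1.75-fold, from 2008 in Tomato+ to 1147 in GFP+ (the authors' adjusted p = 8.74e-08), going by the authors' deposited table. Adrbk2, now Grk3, a kinase that turns off active receptors, fell 1.66-fold, with means of 302 and 502 (the authors' adjusted p = 0.000737), as read from the authors' deposited table. Pde4a, which breaks down cyclic AMP, fell 2.16-fold, with 58.9 and 127 (the authors' adjusted p = 0.0223), as the authors' deposited table has it.

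All 4 phospholipase C beta genes had log2 values below 0, and Plcb2 alone passed, with Plcb1, Plcb3 and Plcb4 at -0.82, -0.35 and -0.42 by the authors' deposited table. Of all 14268 rows, 6957 were below 0. No gene passed among the 5 protein kinase A subunits, the 6 alpha subunit chaperones and modulators, and the 3 PI3 kinase gamma genes, in the authors' DESeq comparison. At an unadjusted p under 0.05 these groups held 1, 0 and 1 genes. The genes with the smallest p-value in each were Prkar2b, Ric8b and Pik3r5, with log2 values of -0.36, -0.32 and 0.69 going by the authors' deposited table.

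Marker genes of several other cell types moved with the fractions, while those of neutrophils went both ways. Of 12 macrophage markers 10 rose, with summed means of 1608 in GFP+ and 493 in Tomato+, while Cd68 and Mrc1 did not pass, as read from the authors' deposited table. Of 11 B lymphoid markers 7 rose, with sums of 1162 and 316, as the authors' deposited table has it. Of 12 endothelial markers 8 fell, with sums of 2902 and 5380, and of 13 megakaryocyte and platelet markers 9 fell, with sums of 2145 and 4494, by the authors' deposited table. None of the measured markers in these lists had a mean of 0 in either fraction. All 11 hepatoblast markers and 8 of 9 erythroid markers rose going by the authors' deposited table. Of 9 neutrophil markers, Ngp, Ltf and S100a9 rose and Elane (5.47-fold) and Ctsg (2.37-fold) fell, with sums of 7005 and 6821, as read from the authors' deposited table. The 3 measured mast cell and basophil markers did not pass in the authors' DESeq comparison, and 2 of them had an unadjusted p under 0.05; their sums were 93.7 and 167 as the authors' deposited table has it. The part of such cells in the changes of receptors and subunits was not tested, and in bulk RNA a change in the number of cells of a type cannot be told apart from a change in RNA per cell.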

How the data were processed

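The analysis started from 1 table, the authors' comparison of 4 GFP+ with 4 Tomato+ libraries. Per the submitters' processing notes, the reads went through TopHat, TopHat2 2.0.11, Bowtie2 2.2.1, DESeq and bedtools in an order and with settings they do not give, on build mm9. Per the file headers, the authors deposited a mean signal per row (normalized counts averaged over all libraries and over each fraction), the ratio of fraction means with its log2, and p-values before and after adjustment. The signs of the log2 values were turned, so that positive means higher in GFP+. A repeated header line was dropped, and for a repeated symbol the row of highest mean was kept.

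The adjusted p-values equalled a Benjamini-Hochberg adjustment over all 14268 rows within 5.28e-08. No test was run, as values per library were not at hand. The counting steps were tested on simulated data. Computation used Python 3.11.15 and pandas 2.3.3.

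Members, classes, lists and the naming rule were chosen with earlier results of these data known. Named are all members past the threshold, the 2 nearest outside it, all P2ry, Ptger, S1pr, Lpar and Adora members, the 2 of highest mean per class, and for pathway lists those past the threshold and the smallest p. Others, such as the ends of ranges and neighbours, were chosen after their values were seen. Some items, 1 member among them, count in the totals but are not reported here.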

Additional observations from a re-analysis of the deposited data

How the results depend on the processing

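No paired analysis was possible because only fraction means, not values per library, were at hand, and leaving out single libraries was not run for the same reason. Against 11 members past the threshold (6 higher, 5 lower), Bonferroni over all rows left 2, Gpr174 and Gpr124. The count was 16 at an adjusted p under 0.1, 9 at 0.01 and 8 with a log2 change of at least 1. With p-values adjusted over rows with a mean of at least 50, it was 9 of 56 such members. These 9 include Adora2a, while P2ry12, Gpr116 and Gpr182 have lower means and were left out. Scaling and centring shift every gene alike by less than the smallest change of the 15 named genes past the threshold, so they could not turn a direction there. Scaling to the same sum gave median log2 values of -0.20 for all members, -0.14 for receptors, -0.25 for G protein subunits, -0.0026 for Rgs proteins and -0.23 for the other proteins. Centring gave -0.079, -0.011, -0.12, 0.12 and -0.11 in that order, and a mean of at least 50 gave -0.036, -0.016, -0.014, 0.22 and -0.072. Without the other proteins the median of all members was -0.0050. The receptor median thus changed sign from 0.02 in each case, and the Rgs median with scaling. Ratios of summed means, in the same order, were 1.04, 0.933, 1.02, 1.13 and 1.19. With scaling they were 0.936, 0.837, 0.919, 1.01 and 1.07, and without the member of highest mean 0.992, 1.13, 1.03, 1.07 and 0.934. The unknown depth limits members with low means.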

Other observations

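In RefSeq, 22 members overlap another gene that has a row of its own. Besides Med12l, 1 such gene, picked here with its values known, passed the authors' threshold: E030024N20Rik, which overlaps Gnaq, averaged 1306 in GFP+ against 682 in Tomato+ (the authors' adjusted p = 9.48e-06), going by the authors' deposited table. Gnaq itself had a log2 of -0.23 and did not pass as read from the authors' deposited table.

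In 1 pair of members with like means, picked with its values known, the smaller change had the smaller p-value. Rgs1 had a log2 of 0.15 at means of 31.9 and 28.7 and an unadjusted p of 0.0668, and Gpr160 a log2 of 0.34 at means of 42.9 and 33.8 and an unadjusted p of 0.970, as the authors' deposited table has it. The spread of single libraries behind such values could not be examined.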
